A study of Caenorhabditis elegans with 6 samples.

Results

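The genes described here act on fatty acids and on the fats that store them. They are the members of 8 *C. elegans* gene families: acyl-CoA synthetases (*acs*), acyl-CoA dehydrogenases (*acdh*), acyl-CoA oxidases (*acox*), enoyl-CoA hydratases (*ech*), carnitine palmitoyltransferases (*cpt*), a hydroxyacyl-CoA dehydrogenase (*hacd*), elongases (*elo*) and lysosomal lipases (*lipl*). The rule takes members by their gene names, from array probe sets that the annotation assigns to 1 gene, and 73 of the 17118 genes on the array belong to them. There were 23 *acs*, 12 *acdh*, 5 *acox*, 10 *ech*, 6 *cpt*, 1 *hacd*, 8 *elo* and 8 *lipl* genes. Where a gene had more than 1 probe set, as 10 members did, the brightest one was used.

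The study compared worms given RPW-24, a small molecule that protects them from bacterial infection, with worms given its solvent, DMSO. The RPW-24 group was wild-type N2 animals, raised on *E. coli* OP50 until the end of the L4 larval stage and then held in liquid S-basal medium with OP50 and 70 µM RPW-24. The DMSO group was of the same strain and stage, in the same medium with OP50 and no RPW-24. Both groups contained 1% DMSO and were kept at 15°C for 15 hours, with no pathogen present. RNA of whole animals was hybridized to Affymetrix arrays, 1 array for each of 3 biological replicates per group, lettered G, H and I, with the treatments of a letter run in parallel.

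A fatty acid must be joined to coenzyme A before a cell can use it, which is the work of acyl-CoA synthetases. Elongases then lengthen the chain, while β-oxidation shortens it. In mitochondria, carnitine palmitoyltransferases bring long chains in and acyl-CoA dehydrogenases take the first oxidation step. In peroxisomes that step belongs to acyl-CoA oxidases, and the worm uses the peroxisomal route to trim the side chains of its ascaroside pheromones. Odd-numbered and branched chains also leave propionate, which the worm removes either by a route that needs vitamin B12 or by a shunt of β-oxidation-like steps that begins with *acdh-1*.

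Intensities are linear values with a lowest value of 4.39 shared by every array, and they are not compared between genes because probe sets differ in brightness. Array medians lay between 9.83 and 9.98 on the RPW-24 arrays and between 8.94 and 9.04 on the DMSO arrays. Whole worms hold many tissues, and fewer cells of a type cannot be told apart here from less RNA per cell. The summed intensity of 10 germline markers was 50032 to 57387 on the RPW-24 arrays and 63458 to 65780 on the DMSO arrays, with all 10 fold changes negative (median log2 fold change -0.29). Body wall muscle markers summed to 47975 to 54578 with RPW-24 and 35867 to 43504 with DMSO (10 genes, median 0.33). The 9 intestinal markers summed to 94798 to 106399 with RPW-24 and 84366 to 108931 with DMSO (median 0.52). Sums over 10 hypodermal markers were 37746 to 40594 with RPW-24 and 35613 to 38284 with DMSO (median -0.01). Most of each sum was *dpy-13*, which averaged 36745.5 with RPW-24 and 34644 with DMSO. Over 10 neuronal markers the sums were 5395 to 6138 with RPW-24 and 5173 to 5651 with DMSO (median 0.05). Most of these was *snb-1*, which averaged 4670 with RPW-24 and 4673 with DMSO. The 9 sperm markers summed to 9844 to 16337 with RPW-24 and 7100 to 11439 with DMSO (median 0.58). Of these, *spe-9* was at the lowest value on every array and the other 8 had positive fold changes. The groups overlapped in all 9. No marker of the germline, muscle, intestinal, hypodermal or sperm lists passed an adjusted p of 0.05 by limma over all probe sets. The neuronal markers *egl-3* and *ric-4* rose (limma adjusted p = 0.0436 and 0.0425, or 0.175 and 0.124 with the replicate block). Over probe sets with a mean log2 intensity of at least 5, 4 germline markers were lower, and 3 intestinal and 2 muscle markers higher, at a limma adjusted p under 0.05. The RPW-24 arrays lay below the DMSO arrays in 8 of 10 germline markers, and above in 6 of 9 intestinal and 6 of 10 muscle markers. Of all genes with a mean log2 intensity of at least 5, 6.80% were lower and 10.3% higher by limma over such probe sets. Of the same genes, 22.7% lay below and 16.2% above. The part of tissue makeup in the results below was not tested.

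Few of the 73 genes passed the test over all probe sets. By limma, with Benjamini-Hochberg adjustment over all 22548 probe sets, 1 member was higher at an adjusted p under 0.05 (1.37% of members), against 2.63% of all genes. On the same test 3 members were lower (4.11%), against 1.08% of all genes. The gene that rose was the peroxisomal oxidase *acox-1.1*, and those that fell were the dehydrogenases *acdh-1* and *acdh-2* and the carnitine palmitoyltransferase *cpt-6*. In 11 members every RPW-24 array lay above every DMSO array (15.1%, against 8.40% of all genes), and in 11 every RPW-24 array lay below (15.1%, against 10.4%). At an unadjusted p under 0.05, 8 members were higher (10.96%, against 7.10% of all genes) and 10 were lower (13.7%, against 8.20%). The median log2 fold change was -0.00 over the members and 0 over all genes.

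Many probe sets were dim, so counts were also taken among the brighter ones. Among genes with a mean log2 intensity of at least 5, 11 of 47 members had all RPW-24 arrays above all DMSO arrays (23.4%, against 16.2% of such genes), and 11 had them all below (23.4%, against 22.7%). When limma was run over these brighter probe sets alone, 4 of the 47 members were higher, against a background of 10.3%, and 6 were lower, against 6.80%. With the replicate letter as a block over all probe sets, 0 members passed in either direction, against 0.835% of genes higher and 0.111% lower. At the thresholds of the study's methods, 3-fold or more with an unadjusted p below 0.025, 0 members were higher by limma, against 1.63% of genes, and 1 member, *acdh-2*, was lower, against 0.380%. An exact permutation test of 3 arrays against 3 cannot give a two-sided p below 0.1, so no single gene could pass by that route. The split of calls also moved with scaling. Centring the arrays on their medians gave 6 members higher and 38 lower. Of all 22548 probe sets it called 1112 higher and 14480 lower. The 38 include genes at the lowest value on all arrays, such as *acs-6* and *cpt-3*. A further quantile normalization gave 0 members higher and 7 lower, against 594 and 814 of all probe sets.

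**Figure D1:**
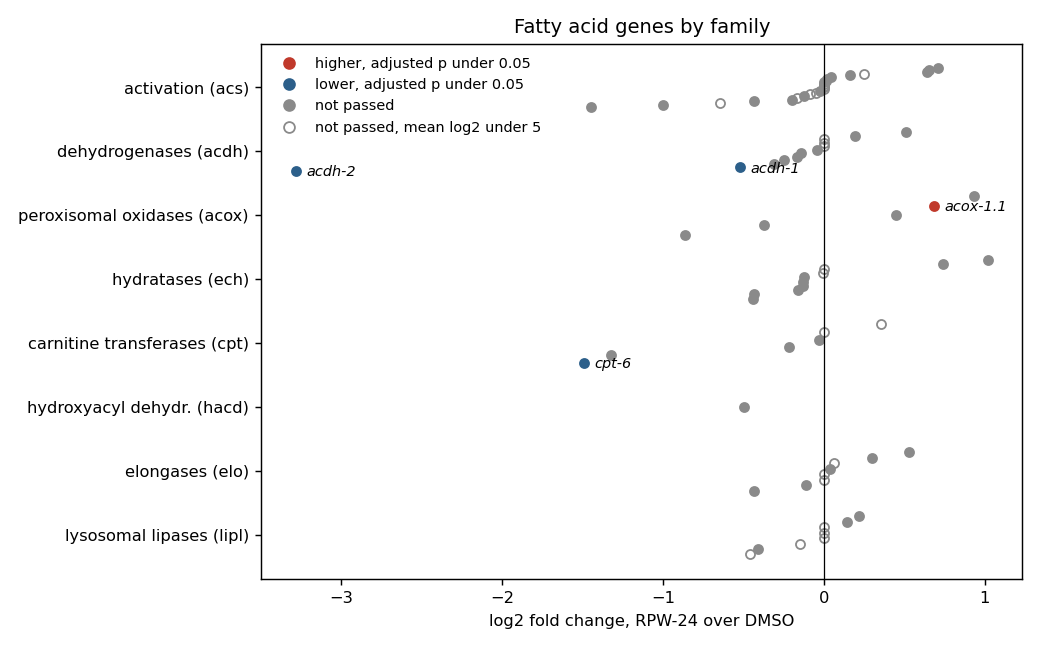
Log2 fold change of RPW-24 over DMSO for each of the 73 genes, 1 row per family, with coloured points for genes at a limma adjusted p under 0.05 and open circles for genes whose mean log2 intensity is under 5. Most points lie near 0, *acdh-2* stands farthest to the left at -3.28, and the *acox* row has 3 of its 5 points to the right of 0.

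The largest change of any member was in *acdh-2* (C17C3.12), which encodes an acyl-CoA dehydrogenase. Its intensity was 50.2, 112 and 83.0 on the RPW-24 arrays G, H and I, and 767, 804 and 698 on the DMSO arrays. The highest RPW-24 array was far below the lowest DMSO array. The means were 81.8 ± 30.9 with RPW-24 and 756 ± 53.9 with DMSO (SD, n = 3 each), a level 9.73-fold lower with RPW-24 (log2 fold change -3.28, SE 0.32, limma adjusted p = 0.0139). With the replicate block the limma adjusted p was 0.0953. A second, dimmer probe set for *acdh-2* gave 15.6 ± 5.92 with RPW-24 and 129 ± 20.8 with DMSO, an 8.54-fold lower level (limma adjusted p = 0.0139).

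Its paralog *acdh-1* (C55B7.4), the dehydrogenase that opens the propionate shunt, also fell, by much less. The RPW-24 arrays read 11278, 10216 and 10547 and the DMSO arrays 14624, 15780.4 and 15549. Every RPW-24 array was below every DMSO array, with little spread inside either group. This is a level 1.43-fold lower (log2 fold change -0.52, SE 0.05, 95% interval -0.66 to -0.38, limma adjusted p = 0.0155, or 0.145 with the replicate block).

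The gene for the acyl-CoA oxidase *acox-1.1* (F08A8.1), which takes the first step in the peroxisomal shortening of ascaroside side chains, rose. It read 214, 182 and 204 with RPW-24 and 135, 127 and 112 with DMSO, so that the groups did not overlap. The level was 1.61-fold higher (log2 fold change 0.68, SE 0.10, limma adjusted p = 0.0437, or 0.15 with the replicate block). In *cpt-6* (W01A11.5), a member of the carnitine palmitoyltransferase family, the RPW-24 arrays read 20.4, 25.6 and 26.3 and the DMSO arrays 53.3, 84.8 and 67.7. The RPW-24 arrays were again all lower, here at a dim level. The change was 2.81-fold lower (log2 fold change -1.49, SE 0.21, limma adjusted p = 0.0392, or 0.0834 with the replicate block). With values under 32 raised to 32 it was -1.07, at a limma adjusted p of 0.104.

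None of these calls held in all 6 fits that leave out 1 array. The call of *acox-1.1* was lost whichever array was left out (limma adjusted p from 0.0792 to 0.155), and so was that of *cpt-6* (limma adjusted p from 0.0517 to 0.151). *acdh-1* stayed under an adjusted p of 0.05 by limma only without RPW-24 replicate G or without DMSO replicate G, and lay between 0.0555 and 0.0856 with any other array left out. *acdh-2* did so only without RPW-24 replicate G or without RPW-24 replicate H, and lay between 0.063 and 0.0764 with any other array left out. Over the brighter probe sets all 4 genes passed by limma, both without and with the replicate block. The fit with the block over the brighter probe sets, cited for single genes below, was chosen after seeing the data. Of its 9951 probe sets, 937 were higher and 427 lower at a limma adjusted p under 0.05. Each of the 4 genes had the same sign of change in all 3 pairs.

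**Figure D2:**
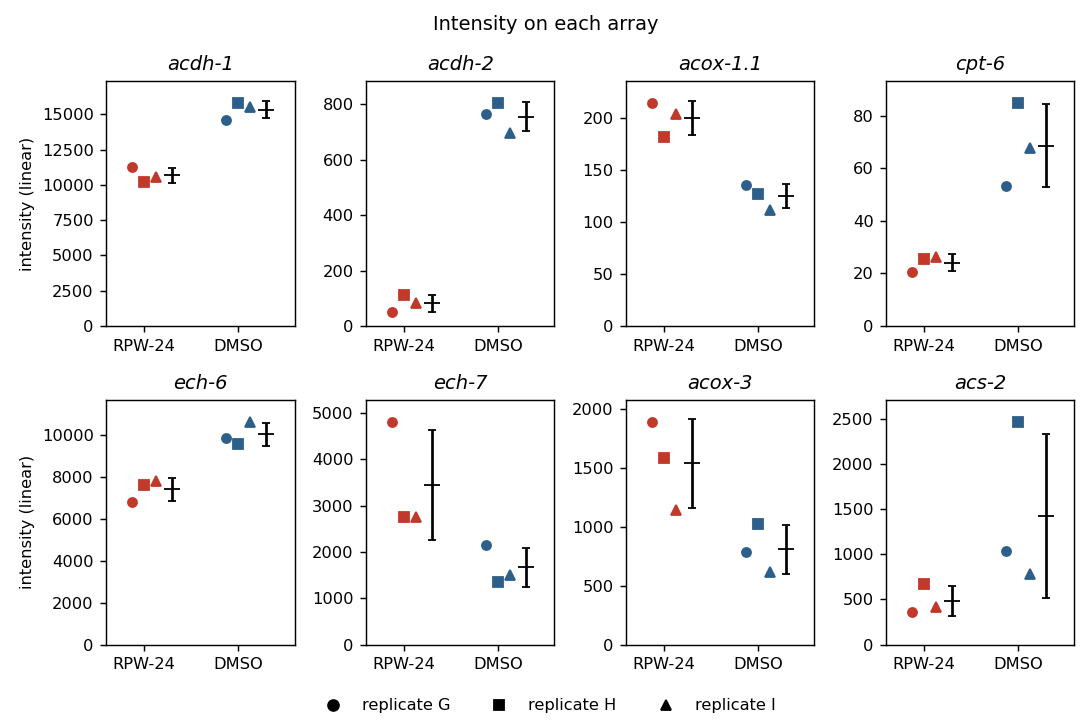
Linear intensity of 8 members on each of the 6 arrays, RPW-24 left of DMSO, with marker shapes for replicates G, H and I and a cross and bar for mean and SD. The groups do not overlap in any of the 8 panels, while *acs-2*, *acox-3* and *ech-7* show the widest spread inside a group.

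Of the 5 genes of the propionate shunt, 3 fell, and in all 5 every RPW-24 array lay below every DMSO array. Over all genes these shares were 1.08% and 10.4%, or 22.7% below among the brighter genes. The shunt genes were picked with earlier results of these data known, so the counts are not independent evidence. After *acdh-1*, the next step is the enoyl-CoA hydratase *ech-6* (T05G5.6). It read 6803, 7630.2 and 7800.3 with RPW-24 and 9875, 9589 and 10640.1 with DMSO. All RPW-24 arrays were below all DMSO arrays, but the gene missed the threshold (log2 fold change -0.44, SE 0.07, limma adjusted p = 0.0563). It passed when only probe sets with a mean log2 intensity of at least 5 were tested (limma adjusted p = 0.0119, or 0.0188 with the replicate block added).

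The hydrolase *hach-1* (F09F7.4), which follows *ech-6*, had the lowest adjusted p among the members and the partner genes described here. It read 3975, 4277 and 4045 with RPW-24 and 6515, 6905 and 6801 with DMSO. The spread between replicates was small beside the gap between the groups. Its level was 1.64-fold lower (log2 fold change -0.72, SE 0.04, limma adjusted p = 0.00276), and it kept its call with the replicate block (limma adjusted p = 0.0332) and with any 1 array left out (limma adjusted p from 0.0108 to 0.0249).

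The dehydrogenase *alh-8* (F13D12.4), at the end of the shunt, read 8267, 7910.2 and 8293 with RPW-24 and 9994, 10395 and 10793 with DMSO. It also fell without overlap, by 0.35 on the log2 scale (SE 0.04, limma adjusted p = 0.0198, or 0.115 with the replicate block). Its limma adjusted p was 0.0683 to 0.099 with any 1 array other than DMSO replicate G left out, and 0.00577 over the brighter probe sets. Between *hach-1* and *alh-8*, the hydroxypropionate dehydrogenase gene *hphd-1* read 5433, 6339 and 6144 with RPW-24 and 7120.1, 6604 and 7619.9 with DMSO. Its groups did not overlap either, but the change did not pass (log2 fold change -0.25, SE 0.08, limma adjusted p = 0.268).

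The 5 genes of the vitamin B12-dependent route had small positive fold changes and none passed. They were 0.27 for *pcca-1* and 0.10 for *pccb-1*, the subunits of propionyl-CoA carboxylase, 0.12 for *mce-1*, 0.14 for the mutase gene *mmcm-1* and 0.14 for *mmaa-1*, with limma adjusted p between 0.479 and 0.731. The nuclear receptor genes *nhr-10* and *nhr-68*, which switch on the shunt when propionate builds up, had log2 fold changes of -0.07 and 0.20 and did not pass. Of the 10 propionate genes listed beside the members, 0 rose and 2 fell (median log2 fold change 0.11). The shares of all genes were 2.63% and 1.08%.

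**Figure D3:**
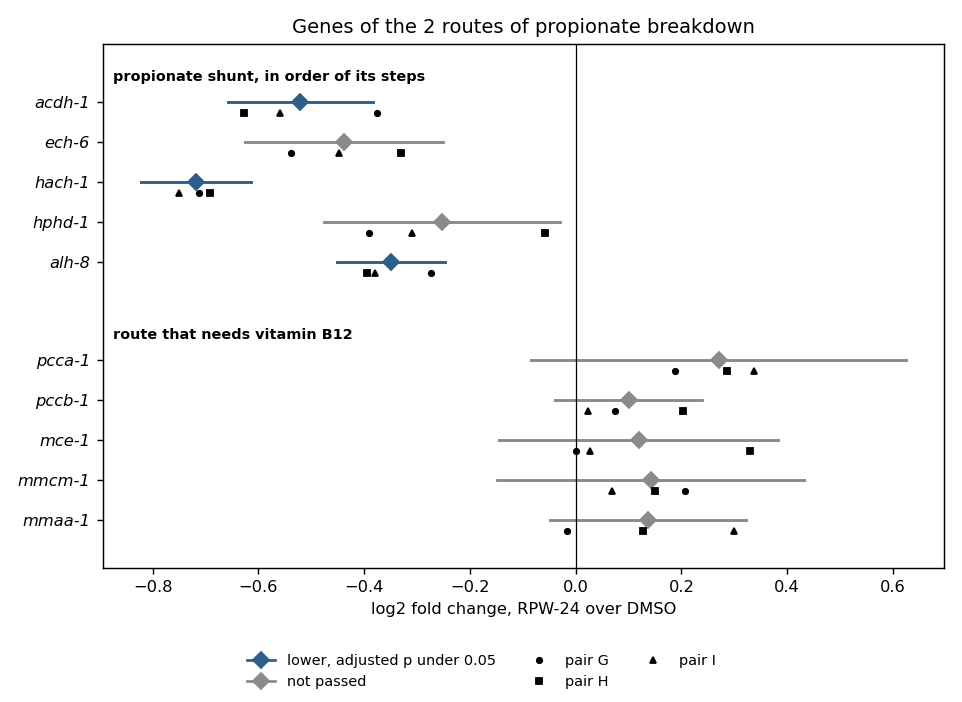
Log2 fold change of RPW-24 over DMSO for the shunt genes in step order and for the route that needs vitamin B12, as diamonds with 95% intervals from limma, and for the pairs G, H and I as small marks below them. All 5 shunt genes lie left of 0 in all 3 pairs, and the 5 genes of the other route have intervals that include 0.

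Among the enzyme genes of peroxisomal oxidation, *acox-1.1*, *dhs-28* and *daf-22* were higher with RPW-24. The family of acyl-CoA oxidases had a median log2 fold change of 0.45 over its 5 members, against 0 over all genes, and was not uniform. That median was 0.15 without probe sets that can match several transcripts and 0.29 after a further quantile normalization. Besides *acox-1.1*, *acox-3* (F58F9.7) read 1894, 1589 and 1143 with RPW-24 and 789, 1023 and 614 with DMSO. The groups were apart, yet replicate spread was wide and the gene did not pass (log2 fold change 0.93, SE 0.28, limma adjusted p = 0.217). It passed with the replicate block over the brighter probe sets (limma adjusted p = 0.0225), a fit chosen after seeing the data. With the arrays centred on their medians the limma adjusted p was 0.0273. That centred fit called 1112 of 22548 probe sets higher and 14480 lower. *acox-1.6* was apart as well (0.45, limma adjusted p = 0.338).

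The other oxidases had negative fold changes. *acox-1.5* read 967, 439.6 and 724 with RPW-24 and 1628, 732 and 1560.4 with DMSO, which overlap (log2 fold change -0.86, SE 0.46, limma adjusted p = 0.523). Within the pairs G, H and I it was -0.75, -0.74 and -1.11, and with the replicate block over the brighter probe sets the gene passed (limma adjusted p = 0.0138). *acox-1.2*, the immediate neighbour of *acox-1.1* in gene order, had -0.37 (limma adjusted p = 0.483). A probe set that matches *acox-1.3* and *acox-1.4* together was left out of the family. It averaged 306 ± 116 with RPW-24 and 281 ± 66.6 with DMSO (SD, n = 3 each).

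The genes of the last steps in the peroxisomal route rose. The thiolase gene *daf-22*, which closes each round of side chain shortening, read 4684, 3262 and 3088 with RPW-24 and 1372, 1352 and 1089.9 with DMSO. The lowest RPW-24 array was above the highest DMSO array. The level was 2.86-fold higher (log2 fold change 1.51, SE 0.20, limma adjusted p = 0.0328, or 0.0899 with the replicate block). Over the brighter probe sets *daf-22* passed without and with the block (limma adjusted p = 0.00373 and 0.00367).

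The dehydrogenase gene *dhs-28*, which acts just before *daf-22*, read 6672, 5124 and 5722 with RPW-24 and 2991, 2799.8 and 2282 with DMSO. It too was higher on every RPW-24 array, 2.17-fold on average (log2 fold change 1.12, SE 0.15, limma adjusted p = 0.0335, or 0.111 with the replicate block). Over the brighter probe sets it passed without and with the block (limma adjusted p = 0.004 and 0.00636). The call of *dhs-28* was lost whichever array was left out (limma adjusted p from 0.0756 to 0.126), and that of *daf-22* in each case but the loss of RPW-24 replicate G (0.0767 to 0.123 by limma). The hydratase gene *maoc-1*, the remaining step, had a log2 fold change of 0.40, with groups that overlap (limma adjusted p = 0.436).

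Genes for the peroxisome itself were mixed. *prx-11*, whose product takes part in peroxisome division, read 395, 364 and 383 with RPW-24 and 148, 128 and 102 with DMSO, with no overlap. It was 3.05-fold higher (log2 fold change 1.61, SE 0.15, limma adjusted p = 0.0123, or 0.0896 with the replicate block). The peroxisomal membrane transporter gene *pmp-2* rose by less (0.36, SE 0.04, limma adjusted p = 0.022, or 0.136 with the replicate block). The limma adjusted p of *prx-11* was 0.0579 to 0.0679 with any 1 RPW-24 array or DMSO replicate H left out, and that of *pmp-2* was 0.0628 to 0.107 with any 1 array but DMSO replicate G left out. Over the brighter probe sets *prx-11* passed without and with the block (limma adjusted p = 0.00112 and 0.00458). There *pmp-2* passed without the block but not with it (limma adjusted p = 0.0208 and 0.0664).

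Its paralog *pmp-1* had a log2 fold change of -1.52 and the peroxisomal catalase gene *ctl-2* had -0.82, neither of which passed (limma adjusted p = 0.18 and 0.166). The import gene *prx-13* had 0.84 (limma adjusted p = 0.0986). Over the brighter probe sets *pmp-1*, *ctl-2* and *prx-13* passed (limma adjusted p = 0.0434, 0.0401 and 0.023). Of the 13 measured genes in the list of oxidation partners and peroxisome genes, 4 rose and 0 fell (median log2 fold change 0.36), against 2.63% and 1.08% of all genes. In 6 of them the RPW-24 arrays lay above the DMSO arrays, and in 3, *kat-1*, *ctl-2* and *pmp-1*, below. All 13 had a mean log2 intensity of at least 5, and among such genes these shares were 16.2% and 22.7%. This list was drawn up with earlier results of these data known, so its count is not independent evidence of a direction.

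Of the mitochondrial long-chain genes *cpt-1*, *cpt-2* and *acdh-12*, none passed the limma test over all probe sets as deposited. *cpt-1*, a carnitine palmitoyltransferase of the kind that loads long chains for import, had a log2 fold change of -0.21 (limma adjusted p = 0.731). *cpt-2* read 3392, 3528 and 3265 with RPW-24 and 3392, 3541 and 3445 with DMSO, which overlap, with a 95% interval of the log2 fold change from -0.12 to 0.07. The very-long-chain dehydrogenase gene *acdh-12* was lower on all RPW-24 arrays but did not pass (-0.25, SE 0.06, limma adjusted p = 0.132).

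The mitochondrial thiolase gene *kat-1* read 6792, 8278 and 7395 with RPW-24 and 9732, 10341 and 10500.5 with DMSO. The groups did not overlap, and the log2 fold change was -0.45 (SE 0.08, limma adjusted p = 0.0761, or 0.0171 over the brighter probe sets). *acaa-2*, another mitochondrial thiolase gene, had -0.15 and groups that overlap (limma adjusted p = 0.559). *hacd-1*, for a hydroxyacyl-CoA dehydrogenase, read 1461, 453 and 720.3 with RPW-24 and 1221, 1081 and 1017 with DMSO. Its RPW-24 arrays lay on both sides of the DMSO arrays (log2 fold change -0.50, SE 0.46, limma adjusted p = 0.731). It was -0.95 without RPW-24 replicate G and -0.10 without RPW-24 replicate H.

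**Figure D4:**
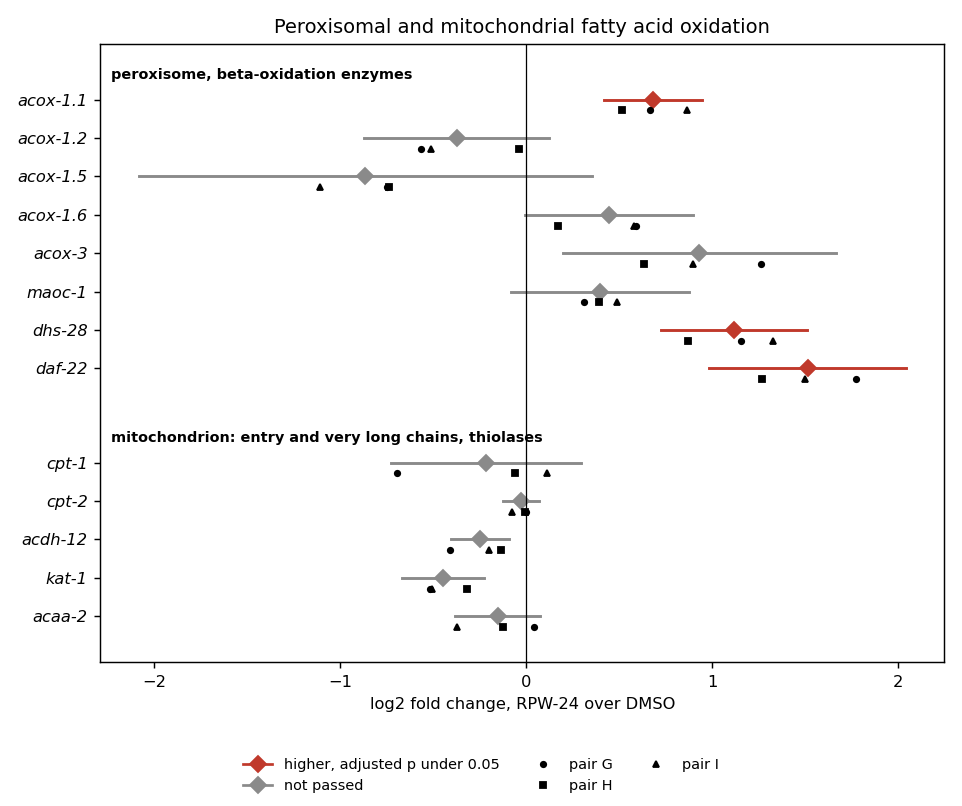
Log2 fold change of RPW-24 over DMSO for enzymes of peroxisomal β-oxidation and for mitochondrial oxidation genes, as diamonds with 95% intervals from limma, and for the pairs G, H and I as small marks below them. The peroxisomal enzymes run from -0.86 for *acox-1.5* to 1.51 for *daf-22*, and the mitochondrial genes shown run from -0.45 for *kat-1* to -0.03 for *cpt-2*. Acyl-CoA dehydrogenases other than *acdh-12* are not drawn and had both signs, such as *acdh-7* (0.51) and *acdh-9* (-0.31).

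Other dehydrogenases and hydratases had fold changes of both signs. *acdh-7*, for a medium-chain acyl-CoA dehydrogenase, was higher on every RPW-24 array (log2 fold change 0.51, SE 0.13, limma adjusted p = 0.143), and a second probe set gave 0.41 (limma adjusted p = 0.0689). It passed when brighter probe sets alone were tested (limma adjusted p = 0.0381), but not with the replicate block over them (limma adjusted p = 0.0639). *acdh-3* (-0.14) and *acdh-13* (-0.17) were below DMSO on every RPW-24 array and did not pass. *acdh-11*, known for its part in the worm's response to heat, had 0.19 and did not pass, though its groups were apart. Over the 12 dehydrogenases 0 rose and 2 fell, and the RPW-24 arrays lay above the DMSO arrays in 2 and below in 5 (median log2 fold change -0.09). Over all genes 2.63% rose and 1.08% fell, and the arrays lay above in 8.40% and below in 10.4%.

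Of the 10 hydratase genes, *ech-7* (Y105E8A.4) had the largest fold change. It read 4809, 2751 and 2759.8 with RPW-24 and 2151, 1359.8 and 1496 with DMSO. In each group replicate G was the highest, and the groups were apart (log2 fold change 1.02, SE 0.31, limma adjusted p = 0.223). The pairs G, H and I gave 1.16, 1.02 and 0.88. The limma adjusted p was 0.0755 with the replicate block and 0.00387 with the block over the brighter probe sets.

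*ech-3* read 154, 143 and 121 with RPW-24 and 90.5, 90.5 and 70.1 with DMSO, again apart (0.74, SE 0.15, limma adjusted p = 0.0952). It passed over the brighter probe sets without and with the replicate block (limma adjusted p = 0.023 and 0.0135). *ech-1.2*, for the α subunit of the mitochondrial trifunctional protein, had -0.13 and groups that overlap. The neighbouring genes *ech-9* and *ech-8* varied more among replicates than between groups, with SEs of 0.65 and 0.54 on the log2 scale. Within the family 0 genes passed (median log2 fold change -0.13), against 2.63% of all genes higher and 1.08% lower.

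The acyl-CoA synthetases form the largest family, and 0 of its 23 genes passed (median log2 fold change 0). The shares of all genes were 2.63% higher and 1.08% lower. In this family 12 genes had a mean log2 intensity of at least 5. The brightest, *acs-4*, read 4643, 5101 and 5211 with RPW-24 and 4658, 4899.9 and 4944 with DMSO. These overlap, with a log2 fold change of 0.04 and a 95% interval from -0.10 to 0.19. Its second probe set gave -0.37 (limma adjusted p = 0.115), so the probe sets of this gene differ in sign.

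The largest fold change in the family was that of *acs-2* (F28F8.2), which activates fatty acids for mitochondrial oxidation and is induced by fasting through NHR-49. It read 356, 669.5 and 413 with RPW-24 and 1033, 2471 and 783 with DMSO. Every RPW-24 array was below every DMSO array, and replicate H was the highest in both groups. The spread was wide and the change did not pass (log2 fold change -1.45, SE 0.53, 95% interval -2.84 to -0.06, limma adjusted p = 0.313). It passed with the replicate block over the brighter probe sets (limma adjusted p = 0.019). A second probe set gave -1.31 (limma adjusted p = 0.382).

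*acs-22*, for a synthetase of the fatty acid transport protein type, read 309, 252 and 189 with RPW-24 and 508, 452 and 515 with DMSO. The groups were apart (log2 fold change -1.0, SE 0.20, limma adjusted p = 0.089). Over the brighter probe sets the limma adjusted p was 0.0187, or 0.033 with the replicate block added. *acs-12* had a positive fold change, with 145, 175 and 187 for RPW-24 and 103, 96.0 and 123 for DMSO (0.66, SE 0.14, limma adjusted p = 0.111). It was 0.0294 by limma over the brighter probe sets, or 0.0341 with the block added. *acs-14* and *acs-17* also lay above DMSO on every RPW-24 array (0.64 and 0.71, limma adjusted p = 0.324 and 0.33). With the block over the brighter probe sets *acs-14* passed (limma adjusted p = 0.0429).

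*acs-1*, which is needed for branched-chain fatty acid function in development, shows what the choice of probe set does. The brighter probe set had a log2 fold change of -0.43 (SE 0.19, limma adjusted p = 0.415). The dimmer one read 528, 563 and 533 with RPW-24 and 947, 821 and 1116 with DMSO, and it passed (-0.82, SE 0.12, limma adjusted p = 0.045). Both probe sets kept the groups apart. *acs-19*, an acetyl-CoA synthetase gene, had -0.02, with a 95% interval from -0.20 to 0.16.

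In the carnitine palmitoyltransferase family, *cpt-5* had a fold change of the same sign as *cpt-6*. It read 36.3, 32.7 and 24.9 with RPW-24 and 57.5, 66.2 and 121 with DMSO, without overlap (log2 fold change -1.32, SE 0.34, limma adjusted p = 0.159). Over the brighter probe sets the limma adjusted p was 0.0366, or 0.0799 with the replicate block added. Both genes were dim. *cpt-4* was at or near the lowest value throughout and *cpt-3* was at it on all arrays.

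No gene of the 8 elongases passed over all probe sets as deposited, against 2.63% of all genes higher and 1.08% lower. *elo-1*, which lengthens polyunsaturated chains, read 6949.6, 7638 and 7132 with RPW-24 and 8208, 7569 and 7638 with DMSO, which overlap (log2 fold change -0.11, 95% interval -0.25 to 0.03). *elo-2*, which lengthens palmitate, read 3812, 2763 and 3313 with RPW-24 and 2668, 1608 and 2690.5 with DMSO. It was apart, and was lowest at replicate H in both groups (0.53, SE 0.26, limma adjusted p = 0.465, or 0.0489 with the replicate block over the brighter probe sets).

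*elo-5* and *elo-6*, the elongases of the branched-chain fatty acids, had 0.30 and 0.04 with groups that overlap, and *elo-3* had -0.43. Of the 8 other genes of fatty acid synthesis and elongation, 0 passed (median 0.07), against 2.63% of all genes higher and 1.08% lower. *pod-2*, the acetyl-CoA carboxylase gene, had 0.63 (SE 0.14, limma adjusted p = 0.124), and *art-1*, for the last reductase step of elongation, had 0.42 (limma adjusted p = 0.108), both apart. Both passed over the brighter probe sets (limma adjusted p = 0.0324 and 0.0275). The fatty acid synthase gene *fasn-1* had -0.03 and the ketoacyl reductase gene *let-767* had 0.06, with overlapping groups.

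Among the 8 lysosomal lipases 0 passed, and in 0 were the groups apart. For all genes the shares were 2.63% higher and 1.08% lower, with RPW-24 arrays above in 8.40% and below in 10.4%. Only 3 of the 8 lipases had a mean log2 intensity of at least 5, and 2 were at the lowest value on all arrays. *lipl-5* read 1589.9, 1079 and 1096 with RPW-24 and 1175, 772 and 1540.3 with DMSO (log2 fold change 0.14, SE 0.32, limma adjusted p = 1). *lipl-1*, which is induced by fasting, varied most, with 145, 45.8 and 63.2 on the RPW-24 arrays and 263, 117 and 31.9 on the DMSO arrays (-0.41, SE 0.94). Its 95% interval, -2.88 to 2.07, spans large changes in either direction. *lipl-4*, a lipase tied to long life in germline-less worms, was at or near the lowest value on all arrays. *lipl-7* had 0.22 (limma adjusted p = 0.444).

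Of 12 other genes of neutral lipid storage, 1 rose and 0 fell, against 2.63% and 1.08% of all genes. The 1 that rose was *fitm-2*, which promotes lipid droplet formation. It read 1627, 1662 and 1695 with RPW-24 and 953, 973 and 1177 with DMSO. Its groups were well apart (log2 fold change 0.69, SE 0.09, limma adjusted p = 0.0333, or 0.114 with the replicate block). The limma adjusted p was 0.0971 to 0.13 with any 1 array other than DMSO replicate I left out, and 0.0061 over the brighter probe sets. The lipid droplet coat gene *plin-1* had 0.15 and the adipose triglyceride lipase gene *atgl-1* had 0.05, with overlapping groups.

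Of 14 measured transcription factors and cofactors of lipid metabolism, 0 passed, against 2.63% of all genes higher and 1.08% lower. The nuclear receptor gene *nhr-49* averaged 2138 ± 63.5 with RPW-24 and 2129 ± 0.0699 with DMSO (SD, n = 3 each), and its log2 fold change was 0.01 with a 95% interval from -0.06 to 0.07. It read exactly 2128.78 on DMSO arrays G and I and on RPW-24 array I. The SD and interval may therefore understate the spread between replicates. *hlh-30*, the worm's TFEB, was higher on every RPW-24 array but missed the threshold (0.35, SE 0.06, limma adjusted p = 0.0689, or 0.0366 over the brighter probe sets). *mdt-15* and *sbp-1* had -0.09 and -0.13.

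Not every member could be read. Of the 73, 11 were at the lowest intensity on all 6 arrays: *acs-6*, *acs-10*, *acs-18*, *acs-23*, *acs-24*, *acdh-5*, *acdh-6*, *cpt-3*, *elo-7*, *lipl-6* and *lipl-8*. No order between the groups can be drawn for these. *elo-4* and *lipl-3* read the same on all arrays, at 4.78 and 6.74. In 35 members at least 1 value was repeated exactly between arrays, and in 38 all 6 values differed. *elo-7* lies next to *elo-1* in gene order, and *ech-9*, *ech-8* and *lipl-7* follow one another.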

How the data were processed

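RNA of whole wild-type worms was measured on 6 arrays, 3 per group. The authors name GC-RMA and quantile normalization, in no stated order, as the source of the deposited intensity, 1 linear value for each probe set on each array. The array medians still differ between the groups. The GC-RMA version, and whether all arrays were normalized together, are not given in the sources used here. Normalized intensities do not show a change in total RNA. Depth does not apply to arrays, and precision is limited by how many there are. The deposited table names a sample for every value column, with 0 columns left over.

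Of 22625 probe sets, 77 controls were dropped and 22548 were put on the log2 scale, without a filter or pseudocount. The annotation gives 1 gene for 20766, several for 887 and none for 895. Values within 0.1% of the lowest were counted as lowest. RPW-24 was compared with DMSO by limma 3.58.1 in R 4.3.3, with a trend of variance on mean and no block. The study's methods name a modified t-test for the arrays and mention no pairing there. The replicate letter was used as a block in an alternative fit. Plots were made in Python 3.11.15 with matplotlib 3.10.9. The script was tested on simulated data.

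Genes named in full were members at an adjusted p under 0.05, the brightest and the most changed member of each family, and from each partner list up to 4 called genes in each direction and its brightest gene. Other genes were named after their values were seen. Members, lists and the rule were chosen with earlier results of these data known. The letters pair the arrays, as the submitters describe parallel treatment. Over 13787 probe sets, deviations from the group means correlated at 0.0881 for G, 0.144 for H and 0.138 for I, against -0.0946 to -0.0323 between letters. All 73 members were found in the reference gene table. *opt-2*, *msp-10*, *pmp-4* and *nhr-62* were not matched. Promoter motifs were not analysed here.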

Additional observations from a re-analysis of the deposited data

How the results depend on the processing

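The counts of called members depended on the fit. With the replicate block, 0 members were higher and 0 lower, against 1 and 3 without it. Among the 26 genes named in full, 10 lost their call and *hach-1* alone kept one. The rest had no call to lose. Leaving out 1 array gave 0 higher members in each of the 6 cases and 0 to 2 lower. Over probe sets with a mean log2 intensity of at least 5, 4 of 47 members were higher and 6 lower. With the replicate block as well, a choice made after seeing the data, there were 7 and 7. Of all 9951 such probe sets, 950 were higher and 673 lower without the block, and 937 and 427 with it. Centring the arrays on their medians gave 6 higher and 38 lower, because it moves the median of all probe sets by -0.14, those at the lowest value included. Of all 22548 probe sets it called 1112 higher and 14480 lower. Among the 26 genes named in full, 7 gained a call there. They include *cpt-2* and *elo-1*, both as lower (limma adjusted p = 0.0326 and 0.0111). A further quantile normalization gave 0 higher and 7 lower, against 594 and 814 of all probe sets. Counts higher were 0 with values under 32 set to 32, without probe sets that can match several transcripts, and without the variance trend, with 2 lower in each. At an unadjusted p under 0.05 there were 8 higher and 10 lower, and at a limma adjusted p under 0.1 there were 2 and 5. At a fold of at least 3 and a p under 0.025 there were 0 and 1, by limma and by an ordinary t-test alike. That t-test was unpaired, with equal variances, on linear intensities, while the study's methods name a modified t-test. After Benjamini-Hochberg adjustment the ordinary t-test also gave 0 and 1. Counting a gene if any probe set passed gave 1 higher and 4 lower. The family medians of the log2 fold change moved as follows. Over the brighter probe sets they were -0.00285 for *acs*, -0.17 for *acdh*, -0.77 for *cpt* and 0.14 for *lipl*. After centring they were -0.14 for *acs*, -0.23 for *acdh*, -0.27 for *ech*, -0.12 for *elo* and -0.14 for *lipl*. After a further quantile normalization they were -0.0327 for *acs*, -0.20 for *acdh*, 0.29 for *acox* and -0.0415 for *lipl*. Without probe sets that can match several transcripts they were 0 for *acdh*, 0.15 for *acox* and -0.00394 for *ech*. Leaving out 1 array gave -0.104 to -0.0500 for *ech*, -0.0198 to 0 for *lipl*, -0.182 to -0.0199 for *cpt* (highest without RPW-24 replicate G) and -0.950 to -0.105 for *hacd* (lowest without RPW-24 replicate G, highest without RPW-24 replicate H). Beyond centring, the cause of these shifts was not tested. With 3 arrays a group, and with 36% to 38% of the probe sets of an array at the lowest value, the precision for dim genes is limited, and a gene that did not pass is not shown to be unchanged.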
